A study of Mus musculus with 6 samples.

Results

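The 9 genes described here carry the Notch signal inside the cell, report on it in some settings or, for Hes6, act on the Notch target Hes1. They are the transcriptional repressor genes Hes1, Hes5 and Hes6, the related repressor genes Hey1, Hey2 and Heyl, the feedback inhibitor gene Nrarp, the zinc-finger repressor gene Snai2 and the membrane ligand gene Efnb2. They were taken by name from a count table of 34945 genes, with no rule on their values, but earlier results of these data were known. Of the 9, 8 had enough counts to be tested among 14073 genes, and Hes5 had none. The libraries came from pancreatic islets, the clusters of endocrine cells that secrete insulin, glucagon and somatostatin. Every mouse carried RIP-Cre, in which the rat insulin promoter drives Cre recombinase in beta cells, and Rosa26-rtTA, a transcription factor that acts when doxycycline is present. The Jag1 group (3 libraries) was also positive for tetO_Jag1, an allele that places the Notch ligand Jag1 under doxycycline control, and the Control group (3 libraries) was negative for it. Both groups drank doxycycline for 8 weeks, so the drug, Cre and rtTA were shared by all libraries, and the ages of the mice were not given in the sources used here.

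When a ligand such as Jag1 binds a Notch receptor on a neighbouring cell, the receptor is cut and its intracellular part enters the nucleus, where it joins the DNA-binding protein RBPJ and switches on target genes. Hes1, Hes5, Hey1, Hey2, Heyl and Nrarp are classical targets of this complex, and the Hes and Hey proteins are basic helix-loop-helix repressors that bind DNA and recruit corepressors. In the developing pancreas Hes1 holds back Neurog3, the factor that starts endocrine differentiation. Several of the genes, Heyl, Hey1, Hey2, Nrarp and Efnb2 among them, are also well known in blood vessels and pericytes, which islets contain.

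Totals ranged from 14283469 to 34348729 estimated counts per library. The insulin genes Ins1 and Ins2 accounted for 11.4% to 18.8% of them, as the islet label implies, while 10 acinar marker genes of the surrounding exocrine tissue took 0.246% to 5.99%, with the largest shares in Control 1 and Jag1 3. Jag1 itself stood at 4.28, 4.01 and 4.01 CPM (a library's counts scaled to a common total) in Control 1 to 3 and at 838, 525 and 907 CPM in Jag1 1 to 3, so each library followed its label. Jag1 2 had the least Jag1 transcript of its group. The labels do not say that the libraries came from separate mice, so p-values measure only the spread between these libraries.

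The sequences just upstream of 3 of the genes are shown because they differ in the short motif that RBPJ binds, TGGGAA, and because these genes span the observed levels from none (Hes5) to higher in every Jag1 library (Nrarp). They are from RefSeq on GRCm38.p6, run 5′ to 3′ on the strand of the gene, and come from the 250 bases before the RefSeq gene start. The Hes5 window is at chr4:154960673-154960922 (plus strand), the Hey2 window at chr10:30842802-30843033 (minus strand) and the Nrarp window at chr2:25180508-25180757 (plus strand). The Hey2 window is shown without its last 18 bases, which GENCODE places inside the gene, and the Hes5 window overlaps the antisense transcript Gm20421. Capitals mark TGGGAA or its reverse complement TTCCCA, and CACGNG, a site bound by Hes and Hey proteins, on either strand.
Hes5: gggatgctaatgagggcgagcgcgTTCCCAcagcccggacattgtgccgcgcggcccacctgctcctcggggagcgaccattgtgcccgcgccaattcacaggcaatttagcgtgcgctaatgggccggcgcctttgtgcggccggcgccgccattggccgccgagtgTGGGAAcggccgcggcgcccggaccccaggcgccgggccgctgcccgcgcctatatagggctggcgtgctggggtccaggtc
Hey2: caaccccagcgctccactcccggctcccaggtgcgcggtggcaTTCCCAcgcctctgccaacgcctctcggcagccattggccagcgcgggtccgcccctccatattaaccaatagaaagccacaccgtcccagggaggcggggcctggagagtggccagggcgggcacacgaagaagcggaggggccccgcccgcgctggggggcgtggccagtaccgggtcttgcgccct
Nrarp: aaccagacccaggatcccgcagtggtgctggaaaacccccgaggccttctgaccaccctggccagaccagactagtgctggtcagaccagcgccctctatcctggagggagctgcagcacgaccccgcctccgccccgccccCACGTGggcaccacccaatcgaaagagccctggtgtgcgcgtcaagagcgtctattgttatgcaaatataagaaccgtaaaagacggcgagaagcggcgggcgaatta

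The Hes5 window held TGGGAA on both strands, starting 226 and 82 bases before the gene start. Hey2 held it once, on the reverse strand, 207 bases before the RefSeq start and 189 bases before the GENCODE start, where the printed sequence ends. In the 250 bases upstream of Nrarp, Efnb2 and the outer Hes6 start there was no match. Nrarp instead held the palindrome CACGTG 108 bases before its start, a form of CACGNG that is also an E box (CANNTG), and the outer Hes6 start had CACGGG 157 bases before it. Of 32817 upstream windows of 250 bases, 21.6% held TGGGAA and 23.5% held CACGNG on either strand. Of the 9 genes, 5 had an entry in the RefSeq promoter table. These matches describe letters in a short window, and binding was not measured.

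Hes5 (chromosome 4, 154960923 to 154962371) had 0 counts in all 6 libraries, so it could not be tested. With 0 counts, up to 3 counts could have been missed, which is 0.0853 to 0.204 CPM per library (counting error only). Hes2 and Hes3, its relatives, were also at 0 counts in every library, and Hes7 averaged 0.433 CPM in the Control and 0.414 CPM in the Jag1 group.

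The other 8 genes were all measured at low to moderate levels. Scaled by the length of annotated exons, Hes6 had the highest level in Control libraries, 10.5 ± 1.75 CPM per kb (SD, n = 3). Hes1 followed at 2.84 ± 0.391, Efnb2 at 1.63 ± 0.270 and Nrarp at 0.958 ± 0.259 CPM per kb. Heyl (0.620 ± 0.0534), Snai2 (0.617 ± 0.225), Hey2 (0.587 ± 0.185) and Hey1 (0.509 ± 0.0110) came last on the same scale. Hes6, Hes1 and Efnb2 each stood apart from the next gene in that order, with no overlap between libraries, whereas from Nrarp downwards neighbours overlapped. In Jag1 libraries the first 5 places were held by the genes in the same order, with Hes6 at 11.6 ± 2.84, Hes1 at 5.40 ± 1.01, Efnb2 at 1.80 ± 0.0546 and Nrarp at 1.48 ± 0.163 CPM per kb. There Nrarp also stood apart from Heyl (0.970 ± 0.331), and the last 4, Heyl, Hey1, Hey2 and Snai2, overlapped with their neighbours.

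**Figure D1:**
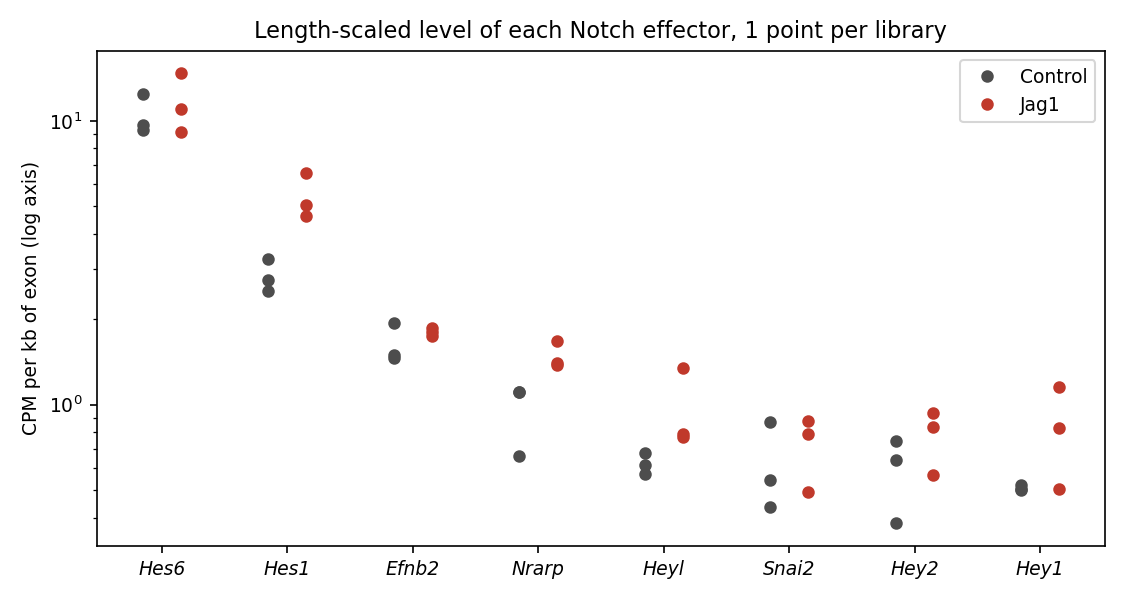
Level of the 8 measured Notch effector genes, in CPM per kb of annotated exon on a log axis, with 1 point per library (Control grey, Jag1 red). Hes6 lies highest at about 10.5 in Control, and the 5 genes from Nrarp to Hey1 crowd near or below 1.48 on average.

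The comparison of Jag1 with Control islets asks how these genes, not all of them classical targets of Notch, stand when beta cells make more ligand. By the quasi-likelihood test of edgeR, adjusted by Benjamini-Hochberg over 14073 genes, 0 of the 8 tested genes passed, where 0.0213% of all genes did (0.0142% upward). DESeq2 called 1 of the 8, Hes1, where it called 0.256% of all genes, and limma-voom called 0. At an unadjusted p under 0.05 by edgeR there were 2 of the 8, Hes1 and Heyl, beside 4.97% of all genes (2.22% upward). All 8 had a positive log2 fold change, beside 49% of all genes tested, and their median was 0.52, beside -0.004 over all genes. In 3 of the 8 (Hes1, Heyl and Nrarp) every Jag1 library lay above every Control library, beside 5.3% of all genes, and in none did the opposite hold. Without Jag1 3 the median of the 8 was 0.35. Several lists used below leaned the same way. Immediate early genes had 9 of 9 positive (median 0.54), and fibroblast and stellate markers 7 of 7 (0.65). Endothelial markers had 9 of 10 (0.19), pericyte and smooth muscle markers 8 of 10 (0.43), duct markers 8 of 10 (0.28) and macrophage markers 6 of 7 (0.19). Alpha (0 of 6) and delta markers (0 of 4) went the other way. Arterial (2 of 3), beta (4 of 8), Schwann (2 of 4) and acinar markers (4 of 10) were mixed. In RNA from whole islets, a change in the number of cells of a type and a change in RNA per cell cannot be told apart.

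Hes1 encodes the repressor that is the most widely used readout of Notch activity. It had 93, 102 and 98 counts in Control 1 to 3, or 5.10, 5.61 and 6.66 CPM. In Jag1 1 to 3 it had 251, 331 and 174 counts, or 13.3, 9.41 and 10.3 CPM. The groups did not overlap, and Jag1 1 was the highest library although Jag1 3 had more Jag1 transcript. The log2 fold change was 0.93 (SE 0.20, 95% interval 0.50 to 1.35), which is 1.90-fold, and Hes1 ranked 19 of 14073 genes by p (edgeR adjusted p = 0.412, DESeq2 adjusted p = 0.039). The exact 2-sided permutation test gave p = 0.1, the smallest that 3 against 3 libraries allow. Hes1 lies on chromosome 16, 30064384 to 30067796 (GRCm38). Leaving out any 1 library gave log2 fold changes of 0.77 to 1.04.

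Hes6 differs from Hes1 in that it is known as an inhibitor of Hes1 that is found in differentiating neurons and endocrine cells, and it is not a classical Notch target. Its values were 22.6, 17.5 and 16.7 CPM in Control 1 to 3 and 19.9, 26.6 and 16.5 CPM in Jag1 1 to 3. The lowest and the highest library were both Jag1 libraries, so the groups overlapped throughout. The log2 fold change was 0.16 (SE 0.19, 95% interval -0.25 to 0.57, edgeR adjusted p = 0.967), and it was -0.054 without Jag1 2. Hes6 thus had an interval that reaches no further than 1.48-fold upward. The ratio of Hes1 to Hes6 CPM was 0.226, 0.321 and 0.398 in Control 1 to 3 against 0.669, 0.354 and 0.624 in Jag1 1 to 3, which overlapped through Jag1 2. Hes6 lies on chromosome 1, 91411483 to 91414038.

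**Figure D2:**
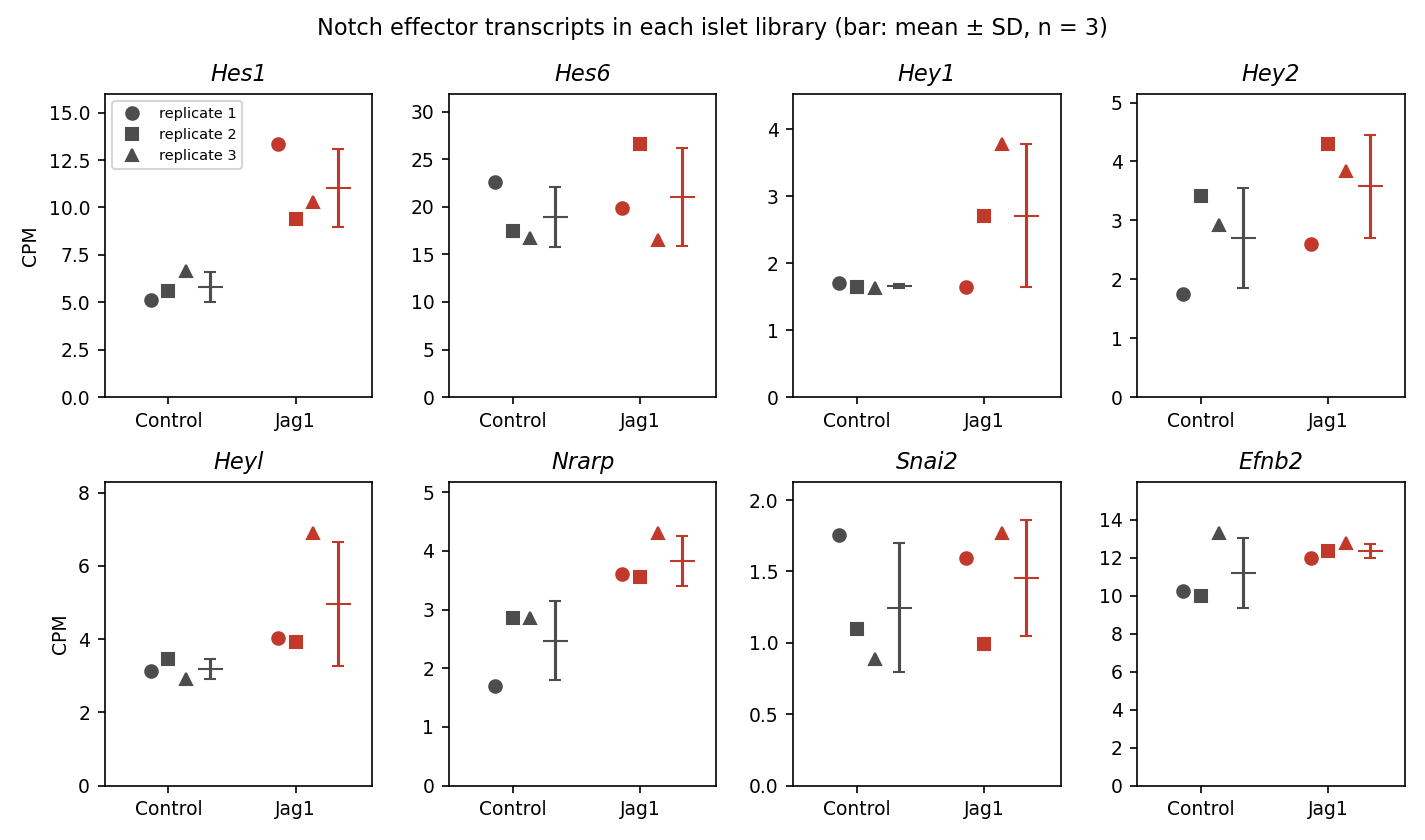
CPM of each tested gene in each library, with the replicate number given by the symbol and the mean ± SD (n = 3) beside the points; each panel has its own axis from 0. For Hes1, Heyl and Nrarp all 3 Jag1 points lie above all 3 Control points, and for the other 5 genes the groups overlap.

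The 3 Hey genes encode repressors best known from arteries, heart and vascular muscle. Hey1 (chromosome 3, 8663359 to 8667256) was almost constant in Control 1 to 3, at 1.70, 1.65 and 1.63 CPM from 31, 30 and 24 counts. In Jag1 1 to 3 it stood at 1.65, 2.70 and 3.78 CPM from 31, 95 and 64 counts. Jag1 1 was thus level with the Control libraries while the other Jag1 libraries were higher. The log2 fold change was 0.70 (SE 0.37, 95% interval -0.11 to 1.52, edgeR adjusted p = 0.955), and it was 0.40 without Jag1 3.

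Heyl (chromosome 4, 123233556 to 123249875), which in adult vessels is typical of pericytes and smooth muscle, had 3.13, 3.46 and 2.92 CPM in Control 1 to 3. In Jag1 1 to 3 it had 4.04, 3.92 and 6.91 CPM. The groups did not overlap, but Jag1 3 stood far above Jag1 1 and Jag1 2, which were close to the Control range. The log2 fold change was 0.63 (SE 0.28, 95% interval 0.01 to 1.26, edgeR adjusted p = 0.955, exact 2-sided permutation p = 0.1), and it was 0.33 without Jag1 3.

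Hey2 (chromosome 10, 30832359 to 30842801), an arterial and cardiac repressor gene, had 1.76, 3.41 and 2.92 CPM in Control 1 to 3 and 2.60, 4.29 and 3.84 CPM in Jag1 1 to 3. The groups overlapped, with Control 1 the lowest of all 6 libraries. Its log2 fold change was 0.41 (SE 0.33, 95% interval -0.31 to 1.14, edgeR adjusted p = 0.955). It was 0.18 without Control 1 and 0.26 without Jag1 2. Without Control 1 and Jag1 3 together, Hey1 had 0.43, Hey2 0.14 and Heyl 0.32.

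Nrarp, on chromosome 2 at 25180758 to 25183339, encodes a small ankyrin-repeat protein that Notch induces and that in turn dampens the Notch transcription complex. It had 31, 52 and 42 counts in Control 1 to 3, or 1.70, 2.86 and 2.86 CPM, and 68, 125 and 73 counts in Jag1 1 to 3, or 3.61, 3.55 and 4.31 CPM. All Jag1 libraries lay above all Control libraries, and the Jag1 libraries were close to each other (coefficient of variation 11.0%), while Control 1 was low. The log2 fold change was 0.63 (SE 0.30, 95% interval -0.03 to 1.29, edgeR adjusted p = 0.955, exact 2-sided permutation p = 0.1). Leaving out Control 1 gave 0.42, and leaving out Jag1 3 as well gave 0.33. An antisense transcript, Gm38287, overlaps Nrarp and shares 1491 bp of identical sequence with it on the opposite strand. It has no row in the count table. The libraries were stranded, per the labels, but the sources used here do not say whether counting used strand. Whether reads of the pair were kept apart is therefore not known.

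Snai2 and Efnb2 are Notch targets in particular settings, Snai2 in epithelial-mesenchymal change and Efnb2 in arteries. Snai2, also called Slug (chromosome 16, 14705852 to 14709385), had the fewest counts of the 8, 32, 20 and 13 in Control 1 to 3 against 30, 35 and 30 in Jag1 1 to 3. These correspond to 1.76, 1.10 and 0.884 CPM and to 1.59, 0.995 and 1.77 CPM, so the groups overlapped. The log2 fold change was 0.20 (SE 0.43, 95% interval -0.74 to 1.14, edgeR adjusted p = 0.985), so folds from 0.597 to 2.20 lay inside the interval at this depth. Leaving out 1 library moved it between 0.01 (without Control 3) and 0.53 (without Control 1).

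Efnb2 (chromosome 8, 8617434 to 8661242) encodes ephrin-B2, a membrane ligand of Eph receptors that marks arterial endothelium. It had 10.3, 10.01 and 13.3 CPM in Control 1 to 3 and 12.01, 12.3 and 12.8 CPM in Jag1 1 to 3. The Jag1 libraries had a coefficient of variation of 3.03% and lay inside the Control range. With a log2 fold change of 0.15 (SE 0.16, 95% interval -0.20 to 0.49, edgeR adjusted p = 0.961), a rise beyond 1.41-fold lay outside the interval. Leaving out 1 library gave 0.07 (without Control 2) to 0.29 (without Control 3).

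**Figure D3:**
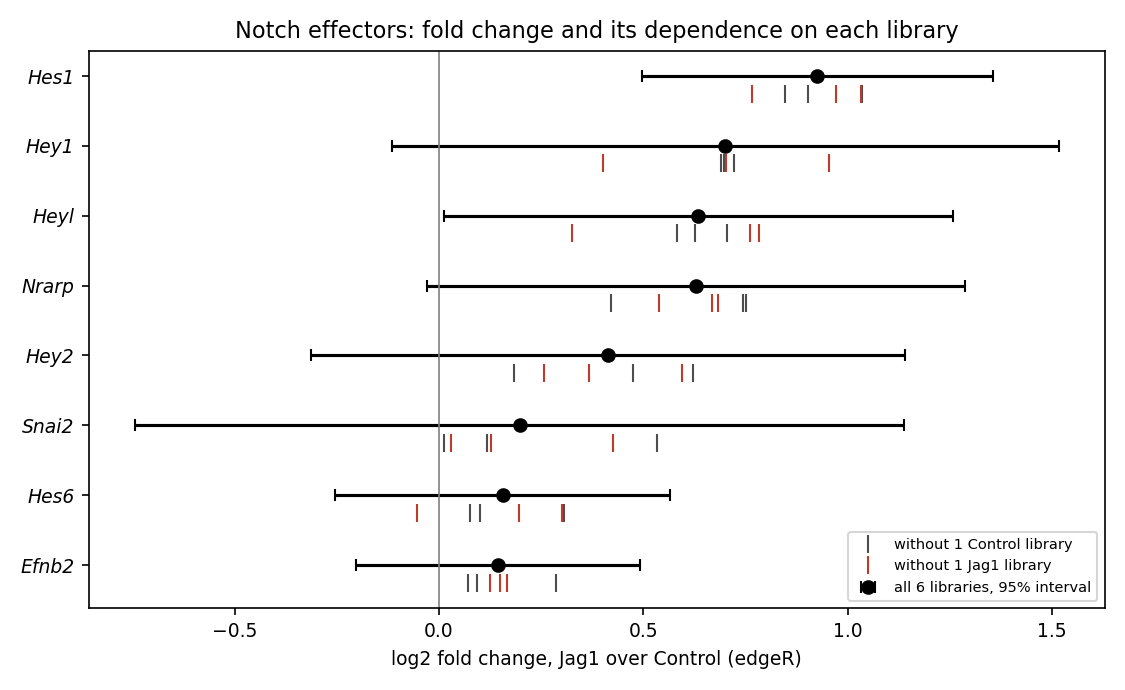
Log2 fold change of each tested gene, Jag1 over Control, from edgeR with its 95% interval (black), and the values with 1 Control (grey ticks) or 1 Jag1 library (red ticks) left out. Hes1 at 0.93 and Heyl at 0.63 have intervals that lie above 0, and the ticks of Hes6 fall on both sides of 0.

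The authors' deposited table of their limma comparison lists the same 8 genes and not Hes5. In the authors' deposited table Hes1 had a log2 fold change of 0.89 (adjusted p = 0.846) and ranked 21 by p. The authors' deposited table gives 0.64 for Nrarp, 0.61 for Hey1, 0.51 for Heyl and 0.49 for Hey2, with an adjusted p of 0.929 for each. It gives 0.17 for Hes6, 0.17 for Efnb2 and 0.10 for Snai2 in the authors' deposited table as well, so all 8 signs were positive in both fits.

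The genes did not share a single ordering of the libraries. Centred on each gene's own mean log2 CPM, the average of the 8 was -0.29, -0.19 and -0.21 in Control 1 to 3 against 0.11, 0.19 and 0.39 in Jag1 1 to 3. Jag1 3 was the highest library for Hey1, Heyl, Nrarp and Snai2, Jag1 2 for Hes6 and Hey2, Jag1 1 for Hes1 and Control 3 for Efnb2. The pair with the most similar pattern was Hey1 and Heyl, with a root mean square distance of 0.22 log2 units over 6 libraries, followed by Hey2 and Nrarp (0.25) and by Hes1 and Nrarp (0.29).

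Among 13426 other tested genes with a conventional name, the nearest in pattern to Hes1 were Guca1a, Wtip and Epha4 (root mean square distances of 0.11, 0.12 and 0.14 log2 units over 6 libraries). Those nearest to Nrarp were Aplnr (0.11), Ptgs1 (0.12) and Ldb2 (0.14), and those nearest to Heyl were Aoc3, Fbln2 and Metrn (0.10, 0.11 and 0.11). Slc26a11, Dhrs3 and Stap2 lay nearest to Hey1 (0.11, 0.14 and 0.15), and Syngr3, Cops7b and Bdkrb2 nearest to Hey2 (0.14, 0.14 and 0.14). For the genes that varied least, Hes6 and Efnb2, the nearest were Klf10 (0.03) and Rnmt (0.04), and for Snai2 it was Bhlha15 (0.09), an acinar transcription factor gene.

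Upstream of these genes, the other parts of the Notch pathway were compared by lists. Of 5 tested Notch ligand genes 1 was called by edgeR, Jag1 itself, upward. Of the remaining 4, 3 were positive, with a median of 0.29, and Dll4, the endothelial ligand, stood at 7.96, 7.92 and 7.75 CPM in Control 1 to 3 and at 9.72, 12.1 and 8.74 CPM in Jag1 1 to 3. Among the 4 receptor genes 3 were positive (median 0.15), with the largest value for Notch3, the receptor of pericytes, at 0.45 (SE 0.18, edgeR adjusted p = 0.955). The nuclear complex had 5 positive and 9 negative of 14 (median -0.04). Its DNA-binding subunit Rbpj stood at 36.8 ± 2.75 and 37.9 ± 5.03 CPM in Control and Jag1 libraries (SD, n = 3), and the histone acetyltransferase genes Ep300 and Crebbp had -0.33 (SE 0.12) and -0.26 (SE 0.12), both lower in every Jag1 library. Proteases, glycosyltransferases and regulators of the receptors had 7 positive and 12 negative of 19 (median -0.04). By edgeR 0 genes of the receptor, nuclear complex and protease lists passed, beside 0.0213% of all genes. At unadjusted p under 0.05 there were 1, 2 and 0, beside 4.97% of all genes. Of all genes, 49% were positive and 10.5% had groups that did not overlap.

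Of 14 other tested genes reported as Notch targets, 10 were positive, beside 49% of all genes, with a median of 0.24. By edgeR 0 passed, and 3 had an unadjusted p under 0.05, beside 4.97% of all genes. The 3 were Bhlhe40, Sox9 and Notch3, which is also among the receptor genes above. Sox9, a duct and progenitor transcription factor gene, stood at 2.85, 1.92 and 1.56 CPM in Control 1 to 3 and at 5.05, 3.47 and 5.14 CPM in Jag1 1 to 3. Bhlhe40, a helix-loop-helix repressor gene that also answers to many stimuli, had 14.7, 13.1 and 13.4 CPM and then 19.5, 18.6 and 18.4 CPM. Both were higher in every Jag1 library, as were 5.3% of all genes. The log2 fold change was 1.09 (SE 0.32) for Sox9 and 0.46 (SE 0.13) for Bhlhe40, with edgeR adjusted p of 0.859 and 0.802. Dtx1, a ubiquitin ligase gene that Notch induces in lymphocytes, overlapped between the groups (log2 fold change -0.22, SE 0.30).

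Downstream, 7 genes known to be repressed by Hes1 were tested, of which 5 were positive and 2 negative, with a median of 0.09. By edgeR 0 of them passed, beside 0.0213% of all genes. At an unadjusted p under 0.05 there were 0 as well, beside 4.97% of all genes. Neurog3 had 7.13, 4.07 and 5.51 CPM in Control 1 to 3 and 8.61, 4.38 and 5.02 CPM in Jag1 1 to 3, an overlap of the groups (log2 fold change 0.10, SE 0.30). Neurod1, an endocrine transcription factor gene, was lower in every Jag1 library, as were 733 of all 14073 genes tested. It averaged 158 CPM there beside 186 CPM in Control (log2 fold change -0.23, SE 0.11, edgeR adjusted p = 0.955). In the same list Cdkn1c, a cell cycle inhibitor gene, and the ligand gene Dll1 were higher in every Jag1 library, as were 5.3% of all genes. Their log2 fold changes were 0.50 and 0.21. Of 12 corepressor and partner genes, 3 were positive and 9 negative (median -0.07), with Id1, an inhibitor of helix-loop-helix factors, at 0.69 (SE 0.26). Around Efnb2, 5 of 9 Eph receptor and B ephrin genes were positive (median 0.04), with Epha4 at 0.73 (SE 0.33). Around Snai2, 3 of 7 epithelial-mesenchymal genes were positive (median -0.01), with the tight junction gene Ocln at 0.37 (SE 0.13). By edgeR 0 genes of these last 3 lists passed, and 1 of each had an unadjusted p under 0.05, beside 4.97% of all genes. DESeq2 and limma-voom also called 0 genes in each of the pathway lists other than the ligands, where both called Jag1 alone. In the marker and immediate early lists below, DESeq2 called Rgs5 (pericyte), Spp1 (duct) and Fos, Fosb and Ier2 (immediate early). It called 0.256% of all genes, and limma-voom called 0 in each of these lists.

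Since several of these genes are made by vessels, ducts or stimulated cells, summed levels of marker lists were set beside them. Pericyte and smooth muscle markers (10 genes, none at 0) summed to 198, 199.5 and 240.1 CPM in Control 1 to 3 and to 286, 296 and 337 CPM in Jag1 1 to 3, 1.44 times the Control mean, without overlap. Within that list Rgs5, an islet pericyte marker, stood at 141, 148 and 180 CPM in Control 1 to 3 and at 211, 223 and 255 CPM in Jag1 1 to 3, and Pdgfrb at 12.02, 10.9 and 10.1 CPM and then 10.5, 13.8 and 19.1 CPM. Jag1 3 was the highest library for this sum, as it was for Hey1, Heyl and Nrarp. It was also the highest for the arterial, fibroblast and stellate, macrophage, Schwann and acinar sums. For the general endothelial, duct, beta, alpha, delta and immediate early sums another library was highest. Arterial markers (5 genes) summed to 10.3 to 11.4 CPM in Control and 12.5 to 13.4 CPM in Jag1 libraries. Gja5, a gap junction gene of arteries, was at 0.106 to 0.816 CPM. Gja4 stood at 1.65 ± 0.592 and 2.73 ± 0.592 CPM in Control and Jag1 libraries (SD, n = 3). Most of the arterial sum came from Unc5b, at 8.01 ± 0.862 and 8.86 ± 0.637 CPM, which overlapped. Of the 3 arterial markers tested, 0 had groups that did not overlap, beside 10.5% of all genes. General endothelial markers (10 genes) overlapped, at 339 to 382 CPM and 317 to 459 CPM, with Pecam1 at 42.5 ± 3.69 and 50.7 ± 10.5 CPM and Cdh5 at 22.3 ± 1.66 and 23.0 ± 5.62 CPM (SD, n = 3). The part of vascular cells in the Hey, Heyl and Nrarp values was not tested.

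Duct markers (10 genes) summed to 403 to 463 CPM in Control and 527 to 557 CPM in Jag1 libraries, without overlap. Krt19, a duct keratin gene, had 3.24, 1.81 and 1.43 CPM in Control 1 to 3 and 21.9, 3.13 and 7.44 CPM in Jag1 1 to 3, and Krt7 overlapped at 129 ± 16.0 and 132 ± 28.4 CPM (SD, n = 3). Immediate early genes (9 genes), which are induced within a short time by stimulation or handling, summed to 141, 142 and 120 CPM in Control 1 to 3 and to 262, 148 and 235 CPM in Jag1 1 to 3. Within the Jag1 group, Hes1 and the immediate early sum both had Jag1 1 highest, Jag1 3 next and Jag1 2 lowest, as did Krt19, while the duct sum ran the other way, at 527, 557 and 537 CPM in Jag1 1 to 3, and Krt7 was lowest in Jag1 1 (108 CPM) and highest in Jag1 2 (163 CPM). The part of duct cells or of handling in the Hes1 values was not tested.

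**Figure D4:**
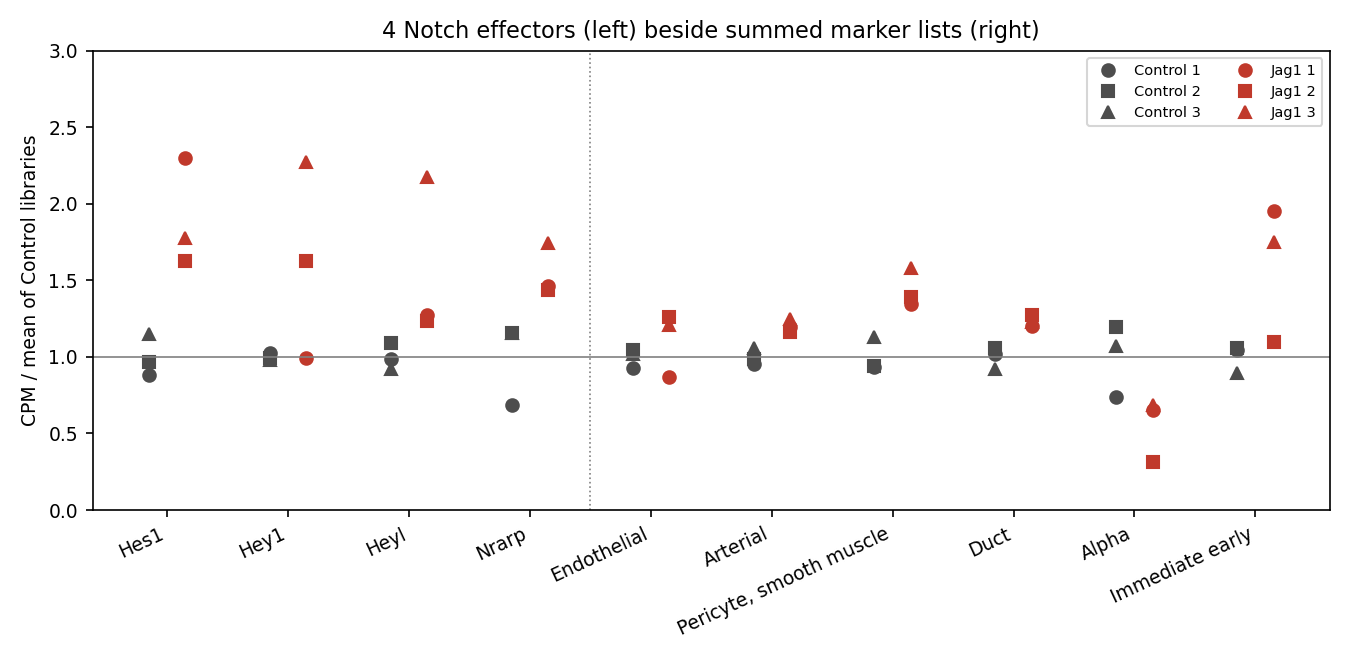
CPM in each library divided by the mean of the 3 Control libraries, for 4 Notch effector genes (left of the dotted line) and for summed marker lists (right). The pericyte and smooth muscle, arterial, duct and immediate early sums of the Jag1 libraries lie above the Control libraries, alpha cell markers lie below, and endothelial markers overlap.

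Alpha cell markers (6 genes) summed to 35284 to 57145 CPM in Control and 14940 to 32986 CPM in Jag1 libraries, and delta cell markers (4 genes) to 3401 to 4567 CPM and 2686 to 3278 CPM, so both were lower in every Jag1 library. Beta cell (8 genes), Schwann (7 genes), macrophage (7 genes), fibroblast and stellate (7 genes) and acinar markers (10 genes) overlapped between the groups. Fibroblast and stellate markers stood at 116 CPM in Jag1 3 and at 18.3 to 49.4 CPM in the other 5 libraries. Pdgfra, a gene that defines that list, was at 1.83 CPM in Jag1 3 and at 0.0284 to 0.825 CPM elsewhere, and Col1a1 at 12.3 CPM and 0.796 to 4.57 CPM. With the acinar marker sum as a covariate, Hes1 had a log2 fold change of 0.93, Hey1 0.64, Heyl 0.59 and Nrarp 0.65 by edgeR.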

How the data were processed

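The authors deposited a table of estimated counts per gene symbol, as whole numbers with no normalization, for 6 islet libraries. The submitters' processing notes name bcl2fastq, kallisto, limma and GRCm38 (mm10), without versions, and the kit makes stranded poly(A) libraries, per the labels. The annotation and the summing of transcripts are not given in the sources used here. In addition, a deposited limma table by the authors holds log2 fold changes and mean log2 expression, p-values, and 2 further columns, handled as a score, per the file headers. A row that names no gene, with 0.00896% to 0.0155% of counts, was left out. Of 34945 symbols, 34210 matched GENCODE vM21 (GRCm38), which gave coordinates and exon lengths.

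Counts were tested in edgeR 4.0.16 (R 4.3.3) with filterByExpr at a minimum count of 10, TMM scaling and the robust quasi-likelihood test, Jag1 against Control without covariates, at an adjusted p of 0.05. CPM used TMM library sizes, and log2 CPM a prior count of 2. Intervals of fold changes are 95% from the fitted SE. The steps were tested on simulated data. Alternatives were DESeq2 1.42.0, limma-voom (limma 3.58.1), other filters and scalings, a fit without robust estimation, the replicate number as a block, acinar markers as covariate or left out, and libraries left out.

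The members and the 21 other lists were chosen with earlier results of these data known. Named genes are the members, Jag1, up to 3 genes of smallest p in each pathway list, the first 2 of each marker list, and the 3 genes nearest in pattern to each member (Gm and Rik models aside), of which some are given as counts only. Rbpj, Dtx1, Neurog3, Dll1, Hes2, Hes3, Hes7, Spp1, Fos, Fosb, Ier2 and Unc5b were named after their values were seen. Shared transcript sequence was searched with BLAST 2.17.0 (85% identity over 100 bp). Matplotlib 3.10.9 drew the figures.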

Additional observations from a re-analysis of the deposited data

How the results depend on the processing

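Over 18 alternatives, 7 of the 8 tested genes kept a positive log2 fold change in all, and Hes6 in 17. Over all 18, Hes1 ranged from 0.77 to 1.04, Hey1 from 0.40 to 0.96, Heyl from 0.32 to 0.78, Nrarp from 0.33 to 0.75, Hey2 from 0.14 to 0.62 and Hes6 from -0.054 (without Jag1 2) to 0.45. The lowest values of Heyl, Nrarp and Hey2 and the highest of Hes6 came without Control 1 and Jag1 3 together. With single libraries left out, the lowest were 0.33, 0.42 and 0.18, and Hes6 ranged from -0.054 to 0.31. DESeq2 called 1 of them, Hes1, and the other 17 alternatives called 0. The adjusted p of Hes1 ranged from 0.039 (DESeq2) to 0.998 (without Control 2). Over all genes 3 were called, and 11 with library totals only, 36 by DESeq2, 9 with no filter and 7 without Control 1 and Jag1 3 together. Leaving out 1 library gave 2 to 6 (6 without Jag1 2, 5 without Jag1 3 and 2 without Jag1 1), and 0 members. The cause was not tested. With library totals only, 4 members had groups that did not overlap, and 3 with the other scalings. For libraries of equal replicate number, the correlations of their deviations across genes were -0.19, 0.11 and -0.29 for numbers 1 to 3. The largest correlations were 0.29 for Control 1 with Jag1 3 and 0.27 for Control 3 with Jag1 1, which are alike in acinar share. Because acinar content may set these values, they cannot tell whether libraries were paired. With the replicate block 3 genes and 0 members were called. Depth limits Snai2 most, at 13 to 35 counts a library.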
